A study of Mus musculus with 8 samples.

Results

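The genes of the TGF-beta and BMP signalling pathway were compared between cultured mouse cortical neurons that lack the histone variant H2BE and wild-type neurons. They were taken by name from the authors' deposited table as the genes called Bmp, Gdf, Tgfb, Tgfbr, Smad, Acvr or Ltbp with a digit after the stem, those beginning with Bmpr, and 12 further antagonists, co-receptors and regulators (Nog, Chrd, Chrdl1, Fst, Fstl1, Grem1, Bambi, Inhbb, Eng, Nbl1, Tgif1 and Skil), with 3 or more normalized counts on average. The rule found 56 genes among 26229 rows, and all 56 were among the 18085 genes with an adjusted p. Just inside the minimum lay Gdf6, with a mean normalized count of 3.41, and just outside it lay Bmp5, with 2.79. Bmp8a (2.48), Bmp10 (0.876), Bmp15 (0.66) and the inhibitory Smad gene Smad6 (0.569) were also under it, and none of these 5 genes had an adjusted p.

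The knockout neurons, labelled H2BE-KO/mCherry-KI, carried a knockout of H2BE with an mCherry knock-in, and the others were labelled WT, with 4 biological replicates of each genotype. Neurons of both genotypes came from the cortex of E16.5 mouse embryos and were kept in culture for 12 days before polyadenylated RNA was sequenced. The labels give neither the part of the gene that mCherry replaced, nor the number of litters, nor the strain. The values are those of the authors' deposited DESeq2 comparison, which holds no values per library, so the spread between replicates enters only through the standard error (SE) of each log2 fold change.

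Ligands of this family are secreted dimers that join a type II and a type I receptor kinase on the cell surface. The type I receptor then phosphorylates receptor Smads, Smad2 and Smad3 for TGF-beta, activin and related ligands and Smad1, Smad5 and Smad9 for BMPs, which enter the nucleus with Smad4. Latent TGF-beta binding proteins hold TGF-beta in the matrix in an inactive form, and secreted antagonists such as noggin and chordin bind BMPs before they reach a receptor. In the developing cortex the pathway is known for roles in dorsal patterning, axon specification, astrocyte formation and synapse maturation.

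The targeted gene H2bc21, which encodes H2BE, set the direction of all fold changes, since the table's header names none. Its deposited log2 fold change was 3.45, so every deposited sign, here and below, was turned to H2BE-KO over WT, and H2bc21 then stood at -3.45 (SE 0.19, adjusted p = 4.49e-68), or 9.12% of WT. Wherever a log2 fold change is called deposited or placed in the authors' deposited table below, its sign has been turned in this way. Were this reading wrong, rises and falls would trade places throughout. Genotype means given below were calculated from the deposited mean over all libraries and the deposited fold change, with both genotypes weighted equally. They are in normalized counts, that is, counts divided by each library's size factor. The mean normalized counts of all rows summed to 3.96e+07, and the depth of single libraries was not analysed here. The SE of the pathway genes ran from 0.34 to 1.38 for the 18 genes with a mean count from 3 to 100, from 0.19 to 0.57 for the 22 genes from 100 to 1000, and from 0.09 to 0.40 for the 16 genes of 1000 or more.

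Pathway genes changed in both directions between the genotypes. Of the 56 genes, 11 were higher and 11 lower in H2BE-KO neurons at an adjusted p under 0.05 in the authors' deposited table, or 39.3%, against 21.8% of all tested genes called in either direction, 11.0% called higher and 10.9% called lower. The median log2 fold change was -0.13, with 25 genes above 0 and 31 below, against -0.02 over all tested genes. The median size of the change without its sign was 0.56 on the log2 scale, against 0.33 over all tested genes. The share called grew with the mean count in the pathway as in the whole table: 4 of 18 pathway genes were called from a count of 3 to 100 (22.2%, against 9.61% of all tested genes in that range), 8 of 22 from 100 to 1000 (36.4%, against 26.1%) and 10 of 16 at 1000 or more (62.5%, against 30.6%). The calls rest on the normal reference distribution of the DESeq2 Wald test. Against an empirical null, 1.95 times as wide as the normal, 0 pathway genes and 84 of all genes passed. The centre of this null (-0.103) and its width were taken from the Wald statistics of all tested genes. Any real differences between the genotypes therefore widen it as well. Against Student's t with 6 degrees of freedom, 0 pathway genes and 1 gene of the table passed. At an unadjusted p under 0.05 there were 28 of 56 pathway genes by the deposited test, 10 with the empirical null and 24 with Student's t. Of all 18085 tested genes, 5970 were under it by the deposited test, 1558 with the empirical null and 4219 with Student's t.

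**Figure D1:**
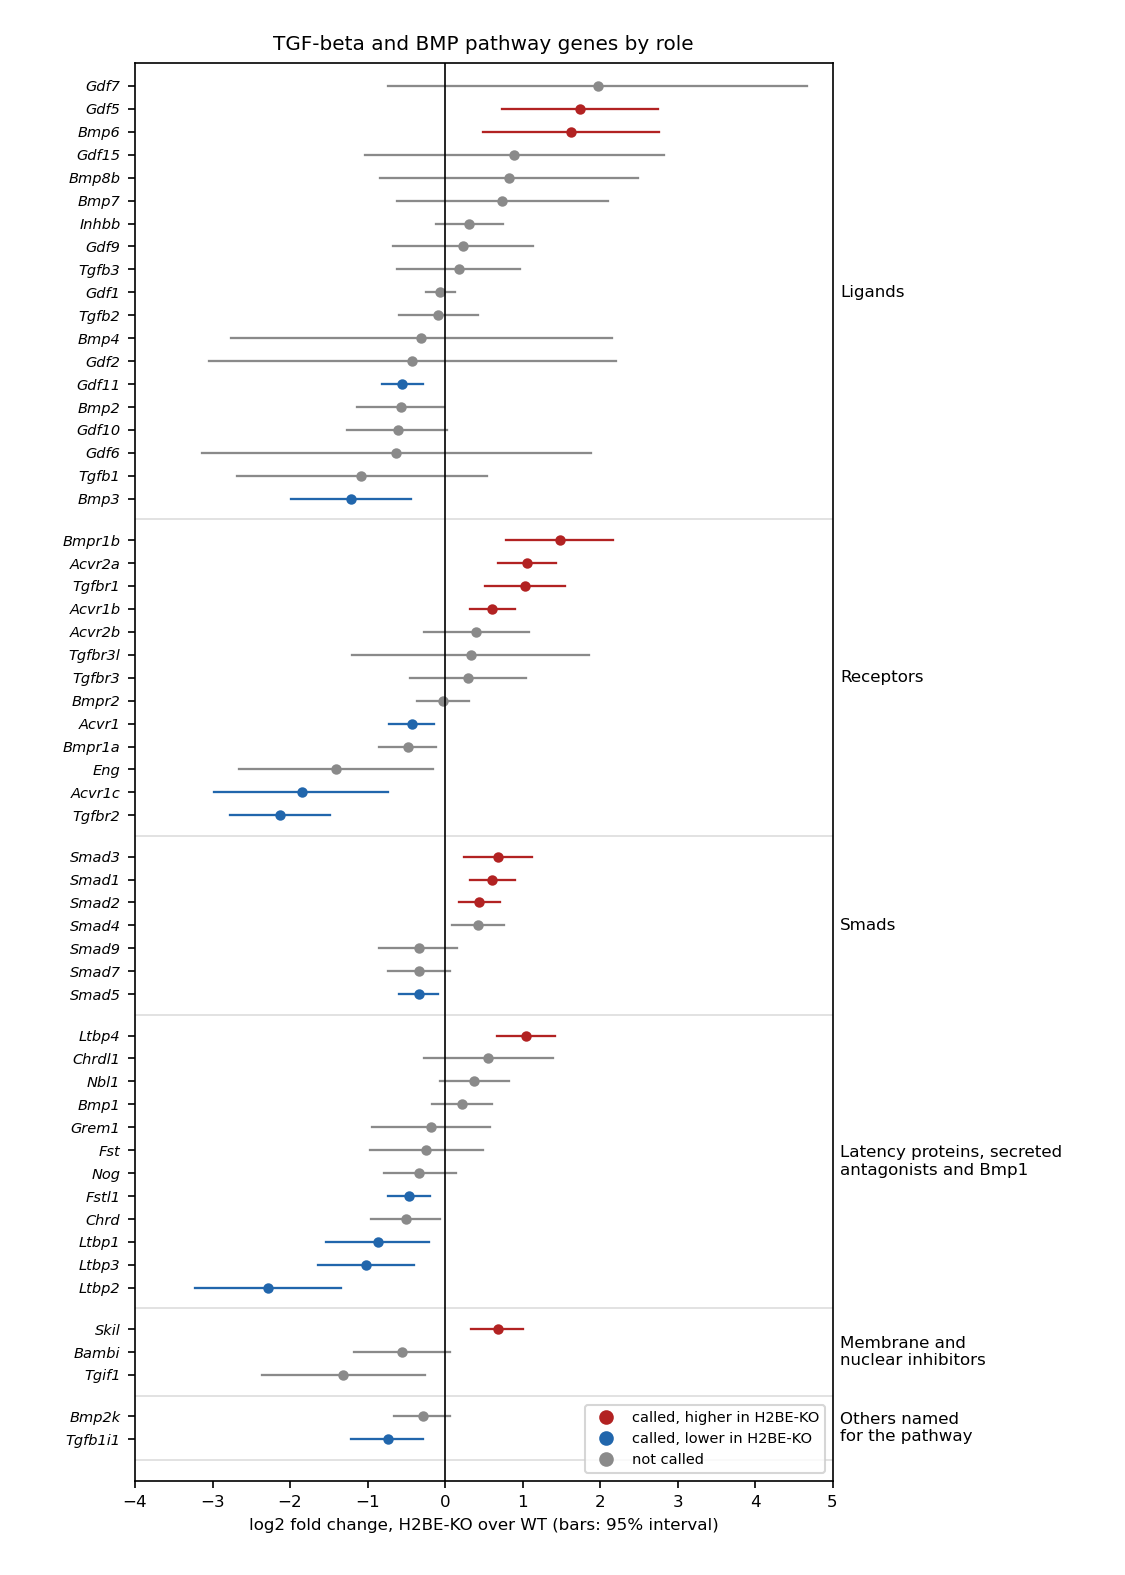
Log2 fold change, H2BE-KO over WT, of the 56 pathway genes by role. Points give the deposited value with its sign turned, bars its 95% interval and colour the call at an adjusted p under 0.05. Receptors and Smads hold calls on both sides of 0, from Tgfbr2 at -2.13 to Bmpr1b at 1.48, and the ligands with the widest bars are those of lowest count.

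**Figure D2:**
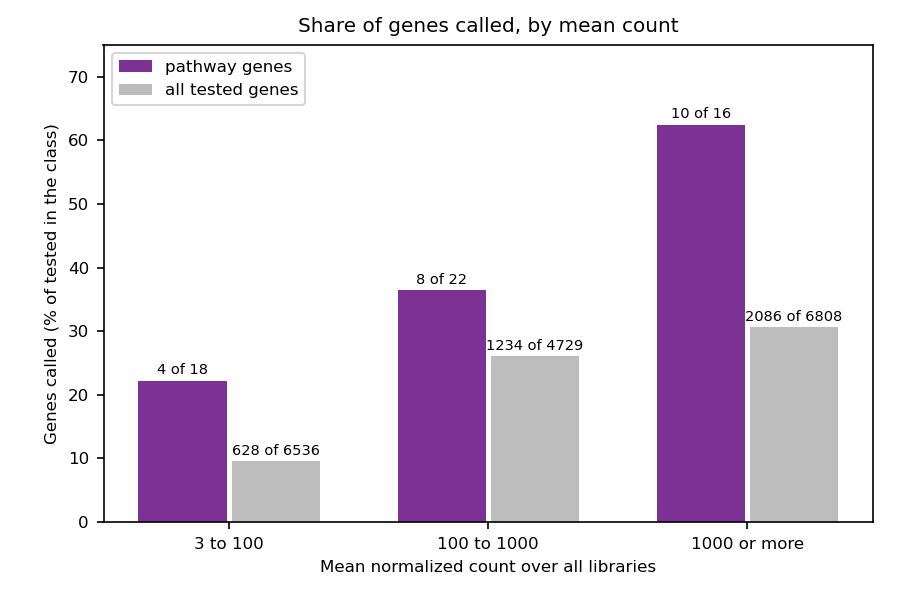
Percent of tested genes called at an adjusted p under 0.05, in 3 classes of mean normalized count, for pathway genes and for all tested genes, with the number called and tested above each bar. In the class of 1000 or more, 62.5% of the pathway genes and 30.6% of all tested genes were called.

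Of 13 receptor and co-receptor genes, 4 were higher and 3 lower in H2BE-KO neurons (53.8% called, against 21.8% of all tested genes), with a median log2 fold change of 0.30. Tgfbr2, the type II receptor that binds TGF-beta, fell, and Tgfbr1, the type I receptor that it phosphorylates, rose. Acvr2a, a type II receptor of activins, GDFs and some BMPs, and Acvr1b, the activin type I receptor, both rose.

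Tgfbr2 (ENSMUSG00000032440) is a protein-coding gene on the minus strand of chromosome 9, from 116084293 to 116175360 in GRCm38. Its calculated mean was 66.2 normalized counts in H2BE-KO neurons and 290.0 in WT neurons, so the knockout held 22.8% of the WT level. The deposited log2 fold change was -2.13 (SE 0.33, 95% interval -2.77 to -1.49, adjusted p = 8.24e-09). This was the smallest adjusted p of the pathway and ranked 163 among all tested genes by the size of the Wald statistic. Tgfbr1 (chromosome 4, 47353222 to 47414931, plus strand) had 1056 normalized counts in H2BE-KO neurons and 515 in WT neurons. Its log2 fold change was 1.03 (SE 0.26, adjusted p = 0.00107), a rise of 2.05-fold. Per kilobase of annotated exon, the mean normalized count over all libraries was 120.0 for Tgfbr1 and 21.8 for Tgfbr2, so that the type I gene was the more abundant of the pair.

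Acvr2a (chromosome 2, 48814109 to 48903269, plus strand) had 6432 normalized counts in H2BE-KO neurons against 3091 in WT neurons, and its log2 fold change in the authors' deposited table was 1.06 (SE 0.19, adjusted p = 1.78e-06). Its exons share 446 bases, or 7.84% of their length, with Orc4 on the opposite strand, and Orc4 stood at -0.05 (SE 0.27). Acvr1b (chromosome 15, 101174067 to 101213684, plus strand) had 7015 normalized counts in H2BE-KO neurons and 4589 in WT neurons (log2 fold change 0.61, SE 0.15, adjusted p = 5.22e-04). Both are abundant: per kilobase of exon, Acvr1b had 1313 and Acvr2a 837 mean normalized counts over both genotypes, at the percentiles 92.0 and 86.9 of all tested genes. By this level Acvr1b ranked 1 of the 56 genes in H2BE-KO and in WT neurons, and Acvr2a ranked 2 in H2BE-KO neurons and 4 in WT neurons, behind Fstl1 and Nbl1. The other activin type II gene, Acvr2b, had 27.2 per kilobase and was not called (log2 fold change 0.40, SE 0.34, adjusted p = 0.443).

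Acvr1c, a type I receptor for Nodal, activin B and some GDFs, and Acvr1, a type I receptor for BMPs, are neighbours on chromosome 2 (58267453 to 58357895 and 58388644 to 58567157, both on the minus strand) and both fell. The calculated mean of Acvr1c was 155 normalized counts in H2BE-KO neurons and 558 in WT neurons, with a deposited log2 fold change of -1.85 (SE 0.57, adjusted p = 0.00918). Acvr1 had 1589 in H2BE-KO neurons and 2138 in WT neurons (log2 fold change -0.43, SE 0.15, adjusted p = 0.0216).

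Of the 3 genes named Bmpr, Bmpr1b, a type I receptor of BMPs, rose and Bmpr1a and Bmpr2 did not pass. Bmpr1b (chromosome 3, 141837136 to 142169425, minus strand) had 259 normalized counts in H2BE-KO neurons and 92.9 in WT neurons, and its log2 fold change was 1.48 (SE 0.35, adjusted p = 4.27e-04) in the authors' deposited table. Its far more abundant relative Bmpr1a (356 mean normalized counts per kilobase, against 29.5 for Bmpr1b) lay just beyond the threshold, at -0.48 (SE 0.19, adjusted p = 0.0509). Bmpr2, the type II receptor of BMPs, with 421 mean normalized counts per kilobase, had 7503 normalized counts in H2BE-KO neurons and 7629 in WT neurons (log2 fold change -0.02, 95% interval -0.36 to 0.31). The co-receptor gene of TGF-beta in endothelium, Eng, had one of the largest changes that did not pass, at -1.41 (SE 0.64, adjusted p = 0.0988), on a mean count of 26.9. Tgfbr3, the betaglycan gene, stood at 0.30 (SE 0.38), and Tgfbr3l at 0.33 (SE 0.78), of whose exons 52.2% overlap another annotated gene on the same strand.

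The promoters of the pair Tgfbr2 and Tgfbr1, which changed in opposite directions, and of Acvr2a and Acvr1b, which rose together, are shown from RefSeq on GRCm38.p6, from 250 bases before to 50 bases after an annotated start. They are written in the direction of the gene, with the GC-rich motif GGCGCC, described for Smad1 and Smad5, in capitals.
Tgfbr2 chr9:116175314-116175613 (minus strand): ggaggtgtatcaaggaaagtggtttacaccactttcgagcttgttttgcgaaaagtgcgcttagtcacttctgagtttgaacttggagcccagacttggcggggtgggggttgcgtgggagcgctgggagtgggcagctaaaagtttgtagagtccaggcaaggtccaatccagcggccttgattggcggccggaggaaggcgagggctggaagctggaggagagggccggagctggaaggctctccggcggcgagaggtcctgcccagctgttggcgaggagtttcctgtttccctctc
Tgfbr1 chr4:47352972-47353271 (plus strand): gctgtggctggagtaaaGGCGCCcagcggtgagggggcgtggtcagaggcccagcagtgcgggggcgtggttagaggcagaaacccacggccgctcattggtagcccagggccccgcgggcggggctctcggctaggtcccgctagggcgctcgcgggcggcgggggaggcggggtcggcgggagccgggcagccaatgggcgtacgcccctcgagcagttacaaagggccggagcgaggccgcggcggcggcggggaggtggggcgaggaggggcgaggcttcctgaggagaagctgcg
Acvr2a chr2:48813859-48814158 (plus strand): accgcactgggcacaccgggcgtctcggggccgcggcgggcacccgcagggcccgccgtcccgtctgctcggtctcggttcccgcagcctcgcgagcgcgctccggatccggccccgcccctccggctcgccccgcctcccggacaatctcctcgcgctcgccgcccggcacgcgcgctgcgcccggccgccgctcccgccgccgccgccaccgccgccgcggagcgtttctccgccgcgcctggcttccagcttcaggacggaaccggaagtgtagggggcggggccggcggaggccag
Acvr1b chr15:101173822-101174121 (plus strand): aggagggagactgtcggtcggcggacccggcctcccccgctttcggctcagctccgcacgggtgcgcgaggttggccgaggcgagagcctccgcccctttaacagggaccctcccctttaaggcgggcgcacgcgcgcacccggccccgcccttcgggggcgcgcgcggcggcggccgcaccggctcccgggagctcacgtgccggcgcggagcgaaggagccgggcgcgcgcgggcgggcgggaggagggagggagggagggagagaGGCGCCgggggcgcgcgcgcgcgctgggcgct

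The windows of Tgfbr1 and Acvr1b each hold GGCGCC once, and those of Tgfbr2 and Acvr2a do not hold it. GC content was 59.0% for Tgfbr2 and 74.7% for Tgfbr1, and 80.3% for Acvr2a and 79.7% for Acvr1b. The ratio of observed to expected CpG was 0.63 for Tgfbr2 and between 0.89 and 1.14 for the other 3. RefSeq windows were matched by symbol for 38 of the 56 genes. GGCGCC, which reads the same on both strands, was in at least 1 window of 13 of these 38 genes (34.2%), against 23.5% of the tested genes with a window and 13.4% of all genes with one. It was in 3 of the 8 higher genes, 1 of the 9 lower genes and 9 of the 21 genes not called. The palindrome GTCTAGAC, a binding sequence of Smad3 and Smad4, was in none of the 38, against 0.276% of the tested genes with a window. At so low a share a set of 38 genes would seldom hold it, so its absence shows nothing about the pathway. The median GC content was taken over windows, so a gene with several windows counted more than once. It was 67.7% for windows of higher, 63.0% for lower and 64.0% for uncalled pathway genes. Over all 53 windows of the 38 pathway genes it was 64.3%, against 60.3% for windows of tested genes and 52.7% for all windows. GGCGCC consists of G and C alone, and the part of GC content and of the number of windows in its share was not tested.

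**Figure D3:**
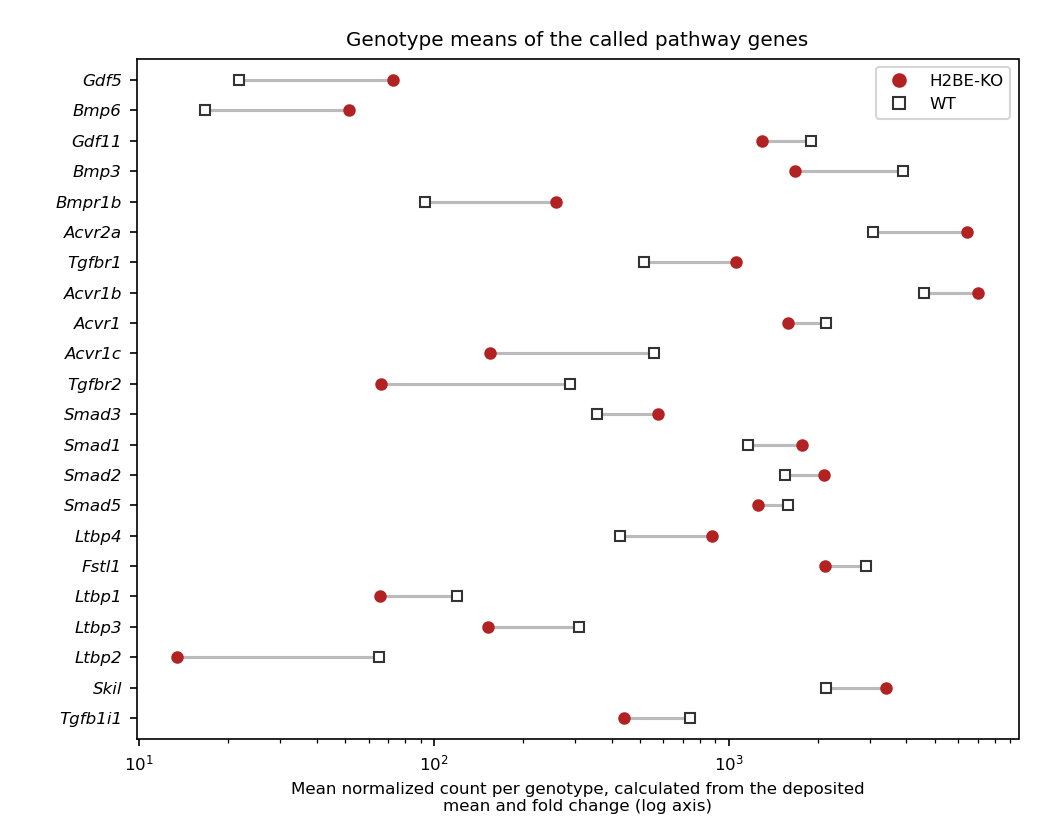
Mean normalized count in H2BE-KO (filled circles) and WT neurons (open squares) for the 22 called pathway genes, on a log axis, ordered by role and fold change. The values were calculated from the deposited mean and fold change and carry no error of their own. The widest gap between the genotypes is that of Ltbp2, at 13.4 in H2BE-KO and 64.9 in WT neurons.

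Smad2, Smad3 and Smad1 rose and Smad5 fell. Of 7 Smad genes, 3 were higher and 1 lower in H2BE-KO neurons (57.1% called, against 21.8% of all tested genes), with a median log2 fold change of 0.42. Smad2 (chromosome 18, 76241580 to 76310963, plus strand) had 2101 normalized counts in H2BE-KO neurons and 1545 in WT neurons, and Smad3 (chromosome 9, 63646767 to 63757994, minus strand) had 573 in H2BE-KO and 358 in WT neurons. Their deposited log2 fold changes were 0.44 (SE 0.13, adjusted p = 0.00776) and 0.68 (SE 0.22, adjusted p = 0.0156), so both Smads of the TGF-beta and activin branch rose. In the BMP branch, Smad1 (chromosome 8, 79338395 to 79399518, minus strand) rose to 1772 normalized counts in H2BE-KO neurons, against 1161 in WT neurons (log2 fold change 0.61, SE 0.15, adjusted p = 5.27e-04). Its near relative Smad5 was lower, at 1252 in H2BE-KO neurons and 1584 in WT neurons (log2 fold change -0.34, SE 0.13, adjusted p = 0.0407). The call of Smad5 was lost with the adjustment over every gene with a p (adjusted p = 0.0587) and with the median of all genes set to 0 (0.061). Per kilobase of exon, Smad1 was above Smad5 in H2BE-KO neurons (283 against 169 normalized counts) and below it in WT neurons (185 against 213), and Smad9 had 41.6 over both genotypes and was not called (-0.34, SE 0.26).

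Smad4, the partner of all receptor Smads, lay just beyond the threshold, at 0.42 (SE 0.17, adjusted p = 0.0593). It passed with the median of all genes set to 0 (adjusted p = 0.0433) and with the adjustment over genes of a mean count of 100 or more (0.0454). The inhibitory Smad7, which the pathway itself induces, was not called, at -0.34 (SE 0.20, 95% interval -0.73 to 0.06). Among the regulators that act with the Smads, Skil, a Smad corepressor, rose to 3414 normalized counts in H2BE-KO neurons, against 2131 in WT neurons (chromosome 3, 31095058 to 31122577, plus strand). The deposited log2 fold change of Skil was 0.68 (SE 0.17, adjusted p = 9.04e-04). Tgif1, a homeobox corepressor of Smads, had a larger change with a larger error, at -1.31 (SE 0.54, adjusted p = 0.0622), and passed with the adjustment over genes of a mean count of 100 or more (0.0477). Bambi, a pseudoreceptor without a kinase domain, stood at -0.55 (SE 0.31, adjusted p = 0.203).

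Of the 4 latent TGF-beta binding protein genes, Ltbp1, Ltbp2 and Ltbp3 fell and Ltbp4 rose. All 4 were called, against 21.8% of all tested genes. Ltbp2 (chromosome 12, 84783212 to 84876532, minus strand), whose protein is a matrix component that does not itself bind latent TGF-beta, had 13.4 normalized counts in H2BE-KO neurons and 64.9 in WT neurons. Its log2 fold change of -2.28 (SE 0.48, adjusted p = 4.92e-05) was the lowest of the 56 genes once the deposited signs were turned. Ltbp3 (chromosome 19, 5740904 to 5758532, plus strand) had 153 in H2BE-KO neurons and 311 in WT neurons (-1.02, SE 0.32, adjusted p = 0.00932). Ltbp1 (chromosome 17, 75005568 to 75392512, plus strand) had 65.4 in H2BE-KO neurons and 120.0 in WT neurons (-0.87, SE 0.34, adjusted p = 0.0467). The call of Ltbp1 was lost with the adjustment over every gene with a p (adjusted p = 0.0674) and with the median of all genes set to 0 (0.0545). Ltbp4 (chromosome 7, 27305136 to 27337692, minus strand) had 877 in H2BE-KO neurons and 426 in WT neurons, and rose 2.06-fold (log2 fold change 1.04, SE 0.19, adjusted p = 2.7e-06). Per kilobase of exon, Ltbp4 was the most abundant of the 4, with 101 mean normalized counts, against 25.6 for Ltbp3, 8.66 for Ltbp1 and 4.79 for Ltbp2.

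Of the secreted antagonist genes Nog, Chrd, Chrdl1, Grem1, Nbl1, Fst and Fstl1, only 1 passed, so their share was not above the 21.8% of all tested genes. Taken with the 4 Ltbp genes and Bmp1, 5 of 12 genes were called (41.7%, against 21.8% of all tested genes), 1 higher and 4 lower. Of these 5 calls, 4 were the Ltbp genes, and Bmp1 was not called. Fstl1, a follistatin-related glycoprotein gene, fell, with 2119 normalized counts in H2BE-KO neurons and 2920 in WT neurons (log2 fold change -0.46, SE 0.14, adjusted p = 0.0075). Chrd, the chordin gene, was at -0.50 (SE 0.23, adjusted p = 0.0955), and Nog, the noggin gene, at -0.33 (SE 0.24, adjusted p = 0.342). The authors' deposited table placed Nbl1, a BMP antagonist of the DAN family, at 0.38 (SE 0.22, adjusted p = 0.233). Per kilobase of exon, Nbl1 had 737 normalized counts in H2BE-KO and 567 in WT neurons, and Fstl1 had 431 in H2BE-KO and 594 in WT neurons. Fst, the follistatin gene, Grem1, Chrdl1 and Bmp1, whose protein is a metalloprotease that cleaves chordin, lay between -0.24 and 0.56, with SEs from 0.20 to 0.42.

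Of 19 ligand genes, 2 were higher and 2 lower in H2BE-KO neurons, and 15 were not called, so that the share called among the ligands (21.1%) was close to that of all tested genes (21.8%). Bmp3, an atypical BMP known to oppose other BMPs, fell to 1672 normalized counts in H2BE-KO neurons against 3880 in WT neurons (chromosome 5, 98854415 to 98884396, plus strand). Its deposited log2 fold change was -1.21 (SE 0.40, adjusted p = 0.0144). Gdf11, a ligand of Acvr2a and Acvr2b, had 1293 in H2BE-KO neurons and 1893 in WT neurons (chromosome 10, 128882295 to 128891718, minus strand). It fell by less and with a smaller error (log2 fold change -0.55, SE 0.13, adjusted p = 5.62e-04). Per kilobase of exon, Gdf11 had 318 normalized counts in H2BE-KO and 466 in WT neurons, and Bmp3 had 226 in H2BE-KO and 525 in WT neurons. The 2 ligands that rose had low counts. Gdf5, a ligand that binds Bmpr1b, had 72.7 in H2BE-KO neurons and 21.8 in WT neurons (1.74, SE 0.52, adjusted p = 0.00615), and 40.3% of its exon length overlaps an annotated gene on the opposite strand. Bmp6 had 51.4 in H2BE-KO neurons and 16.7 in WT neurons (1.62, SE 0.58, adjusted p = 0.0282). Bmp6 shares 5.74% of its exon length with Txndc5 on the opposite strand, which had a mean normalized count of 2970 and a log2 fold change of -0.05 (SE 0.08).

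None of the 3 TGF-beta ligand genes was called in the authors' deposited table. Tgfb2 and Tgfb3, with 85.0 and 91.8 mean normalized counts per kilobase of exon, had log2 fold changes of -0.09 (95% interval -0.60 to 0.42) and 0.18 (95% interval -0.62 to 0.97). Tgfb1 was far lower, at 2.5 per kilobase, with 8.09 normalized counts in H2BE-KO neurons and 17.1 in WT neurons (-1.08, SE 0.82). Inhbb, which encodes the beta subunit of activin B, stood at 0.31 (SE 0.22), Bmp2 at -0.57 (SE 0.29, adjusted p = 0.143) and Gdf10, a relative of Bmp3, at -0.61 (SE 0.33, adjusted p = 0.176). The row named Gdf1 (-0.06, SE 0.09) carries an identifier that the GENCODE annotation gives to Cers1, a ceramide synthase gene that shares a transcript with Gdf1, so its count of 1512 cannot be assigned to the ligand. Gdf7 had the largest change that did not pass, at 1.97 (SE 1.38), on a mean count of 4.61. Gdf2 (log2 fold change -0.42), Gdf6 (-0.63), Gdf15 (0.89) and Bmp4 (-0.31) were not called. They had mean counts from 3.41 to 4.37 and SEs from 0.98 to 1.34, the widest of the 56 genes after Gdf7. The remaining ligand genes, Bmp7, Bmp8b and Gdf9, lay between 0.23 and 0.82 and were not called.

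Tgfb1i1 and Bmp2k, named as genes induced by TGF-beta 1 and BMP2, encode no ligand, receptor, Smad or antagonist. Tgfb1i1, whose protein is a paxillin-related focal adhesion protein known to bind Smads, fell to 441 normalized counts in H2BE-KO neurons, against 738 in WT neurons (deposited log2 fold change -0.74, SE 0.24, adjusted p = 0.012). Bmp2k, a kinase gene, was not called (-0.29, SE 0.19). Without these 2 genes, 11 pathway genes were higher and 10 lower.

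**Figure D4:**
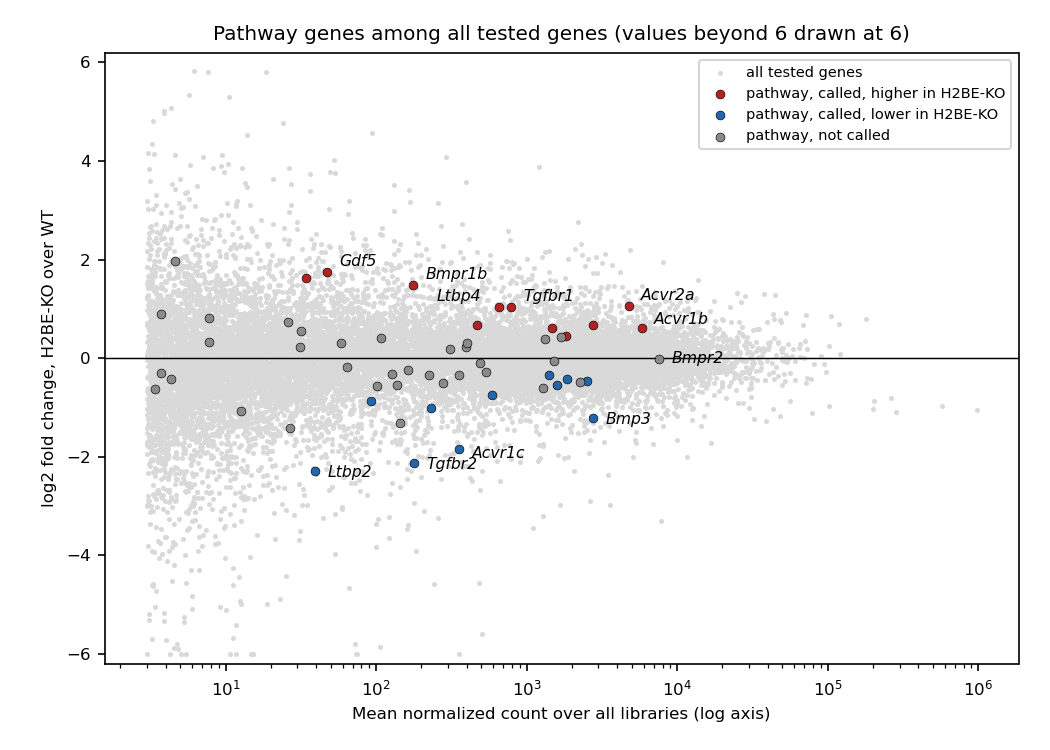
Mean normalized count over all libraries (log axis) against log2 fold change, H2BE-KO over WT, for all tested genes in grey and the pathway genes in colour by call. The abundant receptor genes Acvr2a and Acvr1b lie above 0, at 1.06 and 0.61, Bmpr2 lies at -0.02, and Tgfbr2 and Ltbp2 lie lowest.

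Other genes of the pathway, taken from 4 lists, gave 12 higher and 6 lower of 63 tested, or 28.6% called, not far from the 21.8% of all tested genes, with a median log2 fold change of -0.03. Among 15 tested target genes, 4 were higher and 1 lower (33.3% called, against 21.8% of all tested genes). Hes1, a bHLH repressor gene that Notch also drives, had 95.5 normalized counts in H2BE-KO neurons and 21.2 in WT neurons (log2 fold change 2.17, SE 0.39, adjusted p = 1.07e-06). Ccn2, a matricellular protein gene, had 2026 in H2BE-KO neurons and 491 in WT neurons (2.04, SE 0.57, adjusted p = 0.00298). The cell cycle inhibitor gene Cdkn1a fell (-0.50, SE 0.14, adjusted p = 0.00327). Of the Id genes, which BMP signalling induces, Id4 rose (1.26, SE 0.37, adjusted p = 0.00468), while Id1 was at 1.16 (SE 0.61), Id3 at 1.14 (SE 0.95) and Id2 at 0.19 (SE 0.12). Atoh8 also rose (1.79, SE 0.61, adjusted p = 0.02), on a mean count of 27.7. Other targets not called included Thbs1 at -0.88 (SE 0.36), Fn1 at -0.76 (SE 0.37), Col1a1 at -0.24 (SE 0.40) and Pmepa1 at 0.08 (SE 0.20). Of the 15 target genes, 10 were above 0 and 5 below, with a median log2 fold change of 0.08.

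The authors' deposited table called 3 of 12 further ligand, receptor and co-receptor genes, a share (25.0%) close to that of all tested genes (21.8%). Rgma, a BMP co-receptor and axon guidance gene, had the smallest adjusted p of the 4 lists. It had 3846 normalized counts in H2BE-KO neurons and 1052 in WT neurons (log2 fold change 1.87, SE 0.22, adjusted p = 1.82e-14), whereas its relative Rgmb was at -0.21 (SE 0.20). Lefty2, an inhibitor of Nodal, rose to 87.2 in H2BE-KO neurons against 10.8 in WT neurons (3.02, SE 0.53, adjusted p = 5.09e-07). Inhba, which encodes the beta subunit of activin A, fell to 132 in H2BE-KO neurons against 300.0 in WT neurons (-1.18, SE 0.44, adjusted p = 0.0353).

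Of 17 secreted and surface modulator genes, 2 were higher and 4 lower, per the authors' deposited table (35.3% called, against 21.8% of all tested genes). Itgb8, an integrin subunit gene whose protein activates latent TGF-beta, had 1750 normalized counts in H2BE-KO neurons and 794 in WT neurons (1.14, SE 0.30, adjusted p = 0.00175). Tll1, a tolloid-like metalloprotease gene, had 339 in H2BE-KO neurons and 857 in WT neurons (-1.34, SE 0.32, adjusted p = 4.83e-04). Sostdc1 (-0.84, SE 0.24), a BMP antagonist gene, and Fstl5 (-0.65, SE 0.19) were also lower. Furin, the gene of a proprotein convertase that cleaves the ligand precursors, fell as well (-0.52, SE 0.15), and Twsg1 rose (0.30, SE 0.10). Among 19 intracellular regulators, 4 were higher and none lower at an adjusted p under 0.05, a share (21.1%) close to that of all tested genes (21.8%). They were Smurf1 (0.46, SE 0.13) and Smurf2 (0.42, SE 0.11), ubiquitin ligase genes of Smads and receptors, Trim33 (0.38, SE 0.11) and Zfp423 (1.62, SE 0.42), a zinc finger partner of BMP Smads. Ski, a Smad corepressor related to Skil, was not called (-0.20, SE 0.14), and the kinase gene Map3k7 and its binding partners Tab1 and Tab2 lay between -0.11 and 0.04.

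**Figure D5:**
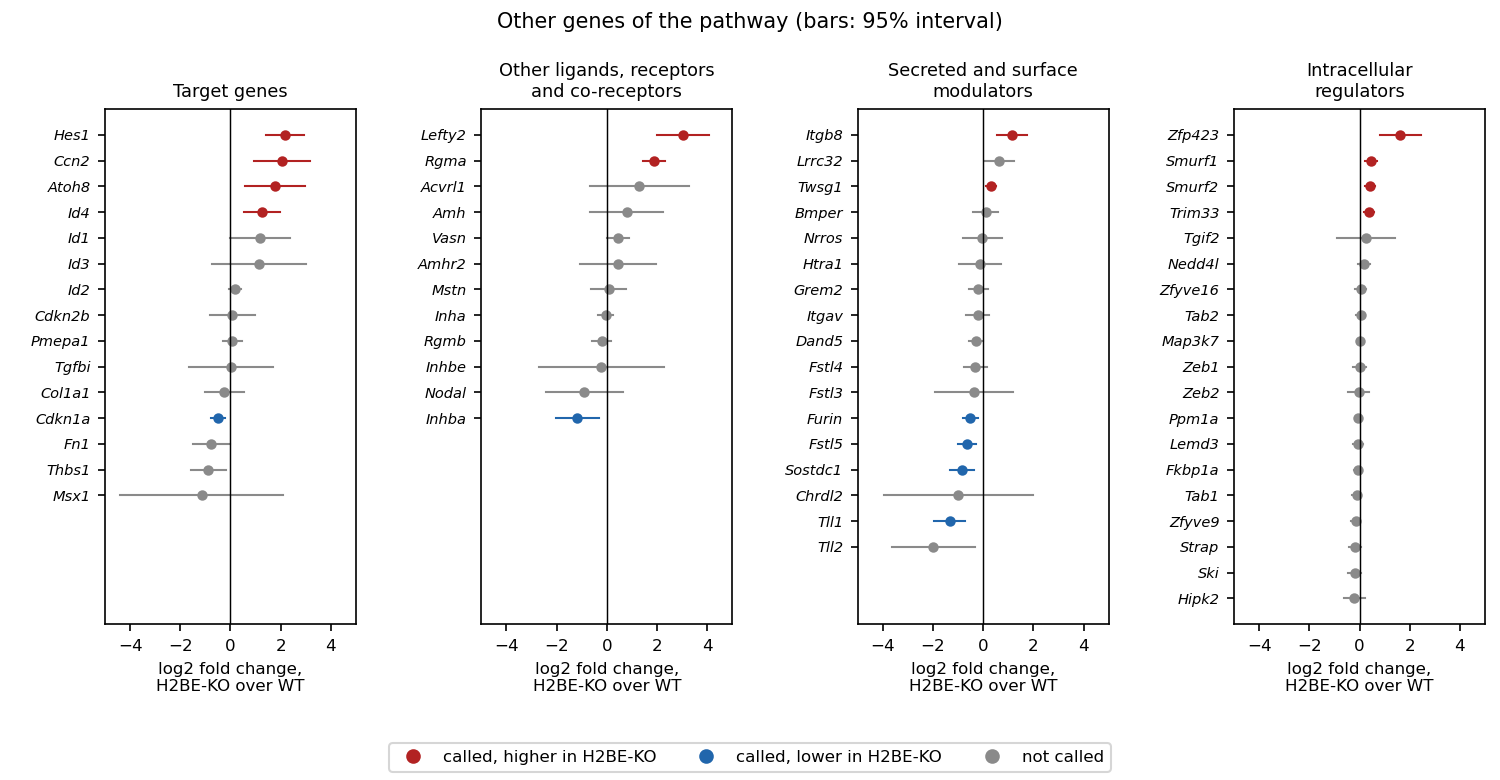
Log2 fold change, H2BE-KO over WT, with 95% intervals, of the 63 tested genes in 4 further lists of the pathway, coloured by the call at an adjusted p under 0.05. Hes1 and Ccn2 lie at 2.17 and 2.04 among the target genes, and the 4 called intracellular regulators are all above 0, at a share called (21.1%) close to that of all tested genes (21.8%).

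The cultures held markers of several cell types, and some of these differed between the genotypes. Over all marker lists, 24 of 64 tested markers were called (37.5%, against 21.8% of all tested genes). The share called was below that of all tested genes for astrocyte, progenitor, oligodendrocyte lineage and endothelial markers. It was above that of all tested genes for neuronal, projection neuron, interneuron, microglia, mural and fibroblast markers. The neuronal markers Tubb3, Map2, Rbfox3, Snap25 and Syt1 had summed calculated levels of 230340 in H2BE-KO and 217351 in WT neurons, with 2 of the 5 called, both higher. Of 6 projection neuron markers 4 were higher, with a summed calculated level of 37421 in H2BE-KO neurons and 20716 in WT neurons, and of 6 interneuron markers 4 were lower, with 52412 in H2BE-KO and 99357 in WT neurons. Of 8 astrocyte markers 1 was higher, with 20038 in H2BE-KO and 10620 in WT neurons, most of it Slc1a2 (17705 in H2BE-KO, 9274 in WT), and of 6 progenitor markers 1 was higher (1279 in H2BE-KO, 982 in WT). Of 8 tested microglia markers 4 were lower, with 56.1 in H2BE-KO and 175 in WT neurons. Of 5 tested mural markers 3 were lower, with 1414 in H2BE-KO and 2339 in WT neurons. Most of the mural sum was Rgs5 (1111 in H2BE-KO, 1525 in WT), which was not called. The other 4 mural markers summed to 304 in H2BE-KO and 814 in WT neurons. Among the called markers of these 2 lists, Csf1r of microglia stood at -3.09 (SE 0.66, adjusted p = 5.89e-05) and the contractile gene Tagln at -1.42 (SE 0.38, adjusted p = 0.00237) in the authors' deposited table. Of 5 tested endothelial markers 1 was lower (60.4 in H2BE-KO, 96.9 in WT). The marker called was Cldn5, on a mean count of 3.0, at the edge of the tested range (smallest mean count 2.99). For fibroblasts, 1 marker was higher and 2 lower of 8 (1794 in H2BE-KO, 1689 in WT). Dcn made up most of the fibroblast sum, with 1261 in H2BE-KO and 437 in WT neurons, and the other 7 summed to 533 in H2BE-KO and 1252 in WT neurons. Among 7 tested oligodendrocyte lineage markers 1 was higher, with 1863 in H2BE-KO and 1579 in WT neurons. Most of that sum was Mbp (1227 in H2BE-KO, 1112 in WT), which was not called. Defining markers close to 0 over all libraries were Sox10 (0.294), Tmem119 (1.02), P2ry12 (1.52), Cdh5 (1.33), Kcnj8 (1.26) and Des (1.4). The part of these cell types in the changes of Tgfbr2, Eng, Ltbp2 or any other pathway gene was not tested, and in RNA of whole cultures fewer cells of a type and less RNA per cell cannot be told apart.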

How the data were processed

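RNA was measured in 4 libraries of H2BE-KO and 4 of WT cortical neurons, grouped by the genotype in the labels, which call the libraries of a genotype biological replicates. Nothing in the labels ties them to separate litters, so p-values measure the spread between these libraries. Libraries were made with a kit that keeps strand, per the labels' protocols. The authors used mm10, DESeq2 and DESeq, per the submitters' processing notes. For the aligner, the counter, its use of strand and the versions, the entry is: not given in the sources used here. Counts of overlapping or antisense genes may therefore be mixed.

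The values are those of 1 deposited table. Per the file headers, the deposited signal averages normalized counts over the libraries. Per the file headers, the deposited fold change and SE are log2 values. The score in the deposited table is a Wald statistic, checked to equal the log2 fold change over its SE (largest gap 2.86e-07), and the deposited p-value is given with a Benjamini-Hochberg adjusted p over 18085 genes. Genes with a p and no adjusted p had a mean count of at most 2.99, and a missing adjusted p was kept missing. The largest log2 fold change in size was 19.5, so the values were taken as not shrunken. The table has 0 columns of single libraries, so no count model was run.

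Calls were made at a deposited adjusted p under 0.05. Genes were matched by Ensembl identifier to GENCODE M21 (GRCm38, the assembly that mm10 names), which held 26032 rows and all 56 pathway genes. Level per kilobase is the mean normalized count over the union of annotated exons. Genotype means were calculated from the deposited mean and fold change. Named with values were all called pathway genes, the 2 of highest count in each role, the 5 of highest and lowest count, the 3 largest changes not called, up to 4 called genes in each further list, and others for context. Marker lists are given mainly by counts and sums. A target gene of the further lists is not reported here and is left out of their counts. The members and lists were chosen with earlier results of these data known. The adjustments were tested on simulated data. Calculations used Python 3.11.15, numpy 2.4.6, scipy 1.17.1, pandas 2.3.3 and matplotlib 3.10.9.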

Additional observations from a re-analysis of the deposited data

How the results depend on the processing

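The number of pathway genes called was 22, with 11 higher and 11 lower, beside 18 other pathway genes and 24 markers, and it depended most on the reference distribution of the Wald statistic. Of all tested genes, 21.8% were called in the main setting. Against Student's t with 6 degrees of freedom 0 pathway genes were called (0 higher, 0 lower), 0 other pathway genes and 0 markers, against 0.00553% of all tested genes. The smallest adjusted p of a pathway gene was then 0.0645, for Tgfbr2. With an empirical null 0 pathway genes (0 higher, 0 lower), 1 other pathway gene and 0 markers were called, against 0.464% of all tested genes, and Tgfbr2 had an adjusted p of 0.0992. With so few calls in the whole table, these counts of 0 show nothing particular to the pathway. With a log2 change of at least 1 required, 11 pathway genes were called (6 higher, 5 lower), against 6.8% of all tested genes, and 10 of the other pathway genes. At a threshold of 0.01, 9 were higher and 6 lower, against 13.9% of all tested genes. The remaining alternatives (adjustment over every gene with a p, over genes of mean count 100 or more, the median of all genes set to 0, a minimum mean count of 50, and without Tgfb1i1 and Bmp2k) gave between 19 and 21 pathway genes called. The share of all tested genes called was 19.5% with the adjustment over every gene with a p, 31.1% over genes of mean count 100 or more, where 38 pathway genes were tested, and 21.8% with the median set to 0. Bmpr2 changed sign when the median of all genes was set to 0, at 0.00 in place of -0.02. Setting that median to 0 gave 12 higher and 9 lower pathway genes. No paired analysis was possible because the table holds no values per library, and for the same reason no library could be left out and no outlying library looked for. Low counts limit the ligands most, with SEs up to 1.38 for a mean count of 4.61.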
